A study of Homo sapiens with 6 samples.

Results

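The marker genes of bladder cancer subtypes were examined in the established human bladder cancer line J82, as 50 genes of the 57820 in the table. They were taken from a list of symbols, with 25 luminal markers, 15 basal and squamous markers and 10 neuronal-like markers, and each of the 50 matched 1 row. RNA-seq had been carried out on 3 control libraries and 3 FOXC1 knockout (KO) libraries. Both groups grew in DMEM with 10% FBS. The KO cells had received the lentiviral CRISPR/Cas9 vector lentiCRISPR v2 against FOXC1, a forkhead transcription factor gene, and were selected with puromycin, and the control cells were vector controls according to the methods. Knockout clones are mentioned in the methods, but not how many clones the KO libraries stand for. Nothing states that the libraries of a group came from separate cultures, so the p-values below measure the spread between these libraries, which may be technical.

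The urothelium is layered. Umbrella cells at the surface carry uroplakin plaques and KRT20, while basal cells carry KRT5, KRT14 and the p63 factor encoded by TP63. GATA3, FOXA1 and PPARG drive the luminal state, and bladder tumours are sorted into luminal, basal or squamous, and neuronal-like subtypes by such markers. Keratins are intermediate filament proteins that form only as pairs of a type I and a type II chain. KRT8 with KRT18 is the pair of simple epithelia, KRT7 (type II) and KRT19 (type I) join them in urothelium, and KRT6 paralogs, KRT16 and KRT17 mark stressed, wounded or squamous epithelium.

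The libraries held 18408134 to 25350908 counts. Pearson correlations of log2 CPM (counts scaled to a common library size) across genes, which are not independent replicates, were 0.996 to 0.998 within groups and 0.987 to 0.989 between them. FOXC1 transcript did not check the labels, with 16.9 to 19.3 CPM in control and 21.1 to 24.1 CPM in KO libraries (log2 fold change 0.30, SE 0.0914, edgeR adjusted p 0.0127), so directions below are those of libraries labelled KO against control. The methods state that knockout clones were checked at the protein level by western blot, and the paper shows less FOXC1 protein in J82 knockout cells. Neither statement names these libraries. Of the immune and endothelial markers looked for, CD3E had 0 counts in every library and PTPRC, a leukocyte phosphatase gene, had 3, 3 and 4 counts in control and 8, 6 and 9 in KO libraries. The summed level of that list was 3.48 to 4.32 CPM in control and 6.22 to 7.43 CPM in KO libraries. CD14 rose (log2 fold change 0.62, edgeR adjusted p 0.00129). CDH5 had 1 count in the control libraries together and 62 in the KO libraries, and passed the filter on low counts only through the KO libraries. The other 4 of the 6 listed genes in the table were too low to test. The part of these genes in the results below was not tested.

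ELF3, DSP, KRT8 and GATA3 were all lower in KO libraries. The RefSeq promoter table (GRCh38.p14) has entries for 24 of the 50 marker genes, and the first entry of each was used. The 250 bases before the start site of that entry are shown for ELF3, DSP, KRT8 and GATA3. They lie at chr1:202010337-202010586 (ELF3, plus strand), chr6:7541421-7541670 (DSP, plus strand), chr12:52926470-52926719 (KRT8, minus strand) and chr10:8045083-8045332 (GATA3, plus strand). Capitals mark matches to the motifs searched on both strands.
ELF3: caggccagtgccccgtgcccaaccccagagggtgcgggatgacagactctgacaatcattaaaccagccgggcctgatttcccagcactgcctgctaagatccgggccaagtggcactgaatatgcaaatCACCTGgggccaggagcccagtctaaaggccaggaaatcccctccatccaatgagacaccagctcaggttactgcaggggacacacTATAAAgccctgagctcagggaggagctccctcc
DSP: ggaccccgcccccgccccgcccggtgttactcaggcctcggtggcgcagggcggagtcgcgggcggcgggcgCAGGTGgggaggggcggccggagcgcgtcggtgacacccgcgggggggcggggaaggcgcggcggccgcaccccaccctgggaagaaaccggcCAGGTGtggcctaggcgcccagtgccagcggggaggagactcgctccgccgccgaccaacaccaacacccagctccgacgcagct
KRT8: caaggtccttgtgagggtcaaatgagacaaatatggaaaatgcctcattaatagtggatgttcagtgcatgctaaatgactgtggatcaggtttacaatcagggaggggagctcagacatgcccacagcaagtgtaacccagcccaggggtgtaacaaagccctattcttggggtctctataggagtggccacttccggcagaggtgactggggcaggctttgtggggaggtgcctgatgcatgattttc
GATA3: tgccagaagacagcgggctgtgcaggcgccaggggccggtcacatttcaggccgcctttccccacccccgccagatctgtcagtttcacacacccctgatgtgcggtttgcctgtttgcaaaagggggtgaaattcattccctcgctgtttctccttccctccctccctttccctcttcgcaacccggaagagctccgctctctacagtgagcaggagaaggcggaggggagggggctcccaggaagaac

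The first motif was the E-box core CACCTG, which repressors of the ZEB and SNAI families are known to bind. The forkhead core was searched with the letters TAAACA. Zinc finger factors such as GATA3 were given the site AGATAA, and AP-1 the site TGANTCA. The core promoter box was searched with the letters TATAAA. The forkhead and core promoter letters can share bases, and the AP-1 letters read the same on both strands. ELF3 had an E-box core starting at -120 and a core promoter box at -34, and DSP had E-box cores at -178 and -85. In the windows searched, KRT8 and GATA3 held none of the 5. Other start sites of a gene were not searched. Whether the first entry is the main start of a gene, or the start used in these cells, was not checked. Nothing is therefore read from the absence of matches in KRT8 and GATA3. Over the 24 marker genes in that table, E-box cores were found in 11 (45.8%), against 17.5% of all 35116 promoter windows of the same length. For this and the shares below, each marker gene gave 1 window, while the comparison took every entry, so a gene with several entries counts more than once there. The 11 were UPK1B, ELF3, GRHL3, VGLL1, SPINK1, KRT5, DSP, SPRR1B, SPRR3, CHGA and STMN1. Of these, ELF3 and DSP were called lower, SPINK1 and STMN1 were not called, and the others were too low to test. The forkhead core was found in 3 (12.5%), against 11% of all windows, namely KRT20, TP63 and SPRR1B. The AP-1 site was found in 3 (12.5%, against 6.57%), the core promoter box in 4 (16.7%, against 10.7%) and the GATA site in 1 (4.17%, against 9.17%). These matches describe letters in a window and are not binding sites.

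The levels show what kind of cells these were. Of the 50 marker genes, 10 had 0 counts in all 6 libraries, 17 never exceeded 3 counts in any library, and 25 passed the filter on low counts and were tested. Among the uroplakins, which build the umbrella cell plaque, UPK3A was at 0 throughout, UPK1A and UPK1B had at most 1 count, UPK2 had 2 to 5, and UPK3B had 10 to 20 counts per library. KRT20 (0 to 2 counts), KRT5 (0 or 1) and KRT14 (0 or 1) were as scarce. A count of 0 allows up to 3 counts, which is 0.118 to 0.163 CPM in these libraries. The defining markers of the umbrella cell and of the basal cell were therefore both at or near the floor.

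In contrast, the simple keratins were abundant. Per length, as CPM divided by the kilobases of the canonical transcript (RPKM), KRT8 stood at 929 ± 149 (SD, n = 3) in control libraries and KRT7 at 610 ± 63.1. STMN1 (389 ± 11.9) and KRT18 (385 ± 48.4) followed and did not differ beyond their spread, and below them came PEG10 (130 ± 4.88), KRT19 (91.5 ± 11.7), ENO2 (60.4 ± 4.19), TFAP2A (32.9 ± 1.29) and GATA3 (11.4 ± 0.665). In KO libraries KRT8 (611 ± 33.9) and KRT7 (583 ± 42.1) did not differ beyond their spread on this length. The order depends on the length used. Over the length of all annotated exons, control RPKM was 241 for KRT8 and 248 for KRT7, 177 for KRT18 and 89.8 for STMN1, and 54.4 for KRT19 and 50.2 for PEG10. On that length the KO values were 159 for KRT8 and 237 for KRT7. The lengths are those of a later annotation than the one used for counting. Markers of the mesenchymal state were expressed alongside. In CPM, not per length, the 7 listed genes summed to 1810 to 1950 in control and 1870 to 2140 in KO libraries. FN1 made up most of that sum, with 1120 to 1230 CPM in control and 1060 to 1310 CPM in KO libraries. CDH1, the epithelial cadherin, had 0 to 3 counts.

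**Figure D1:**
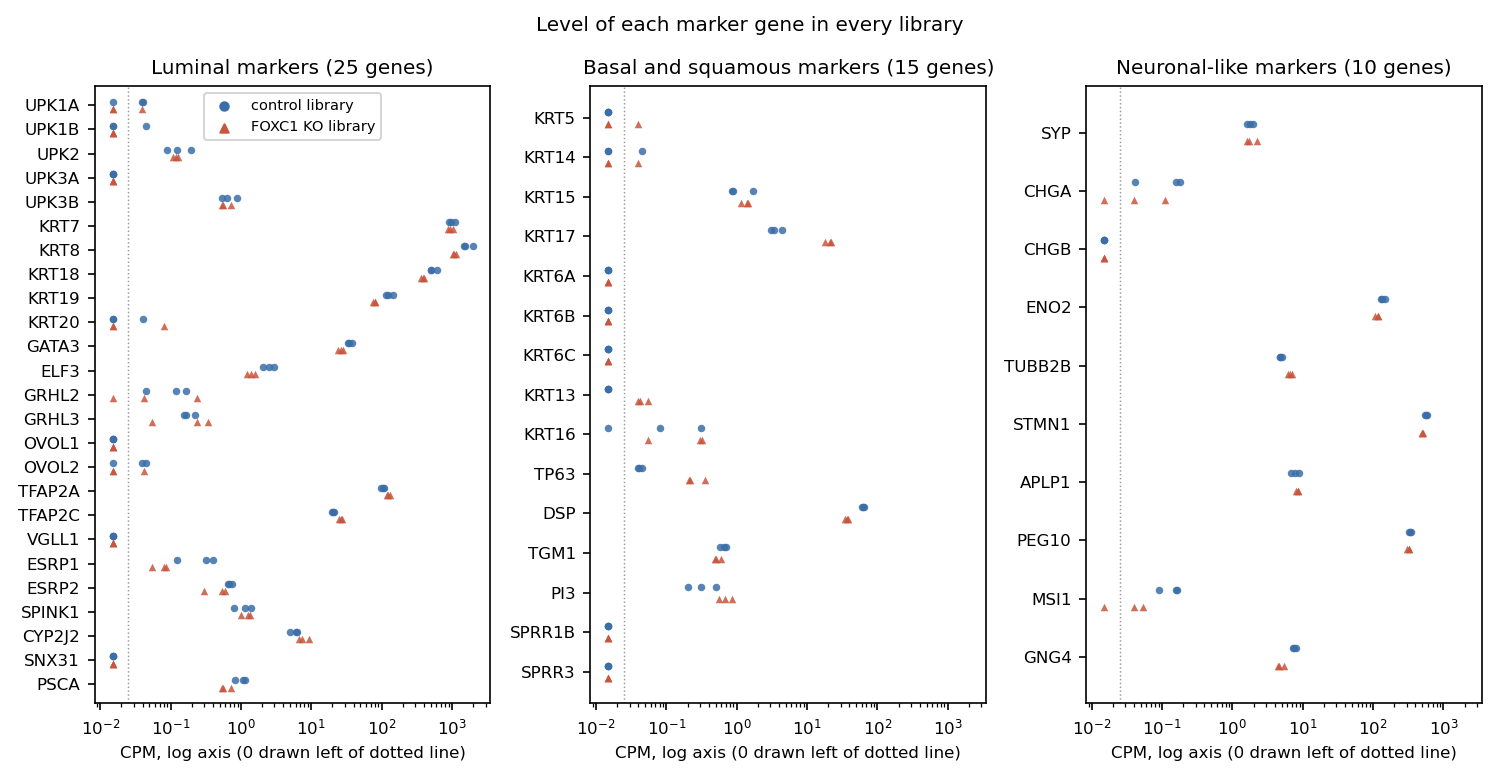
CPM of each of the 50 marker genes on a log axis, with 1 circle per control library and 1 triangle per KO library; libraries with 0 counts are drawn left of the dotted line. KRT7, KRT8, KRT18, STMN1, PEG10 and ENO2 lie above 100 CPM in every library, KRT17 shifts to the right in KO, and 10 genes lie at 0 in all 6 libraries.

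The 2 groups were then compared over all 15647 tested genes, and a gene was called where it differed more than 1.3-fold with an adjusted p below 0.05. Of the 25 marker genes tested, 7 were called lower in KO libraries (28%), against 8.39% of all tested genes, and 4 were called higher (16%), against 7.57%. The lower genes were KRT8, KRT18, KRT19, GATA3, ELF3, DSP and GNG4, and the higher genes KRT17, CYP2J2, PI3 and TUBB2B. The higher markers numbered 2 with DESeq2, without control replicate 2 and without KO replicate 1. With DESeq2 they were KRT17 and TFAP2C, as CYP2J2, PI3 and TUBB2B lost their calls. All KO libraries lay below all control libraries for 12 of the 25 tested markers, against 20.8% of all tested genes, and above them for 6, against 20.5%. The median log2 fold change was -0.42 over the 13 tested luminal, 0.22 over the 5 tested basal and -0.086 over the 7 tested neuronal-like markers, beside -0.001 over all tested genes. The basal median ranged from 0.047 without control replicate 3 to 0.577 without control replicate 1, and was 0.922 with DESeq2 and 0.935 with no filter, where 10 basal markers had a value. These figures leave out the 25 markers under the filter, which ranged up to 9 counts. PI3 passed that filter only through its KO libraries and ESRP2 only through its control libraries, so the filter favoured a difference in these genes. In bulk RNA, fewer cells of a type and less RNA per cell cannot be told apart.

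**Figure D2:**
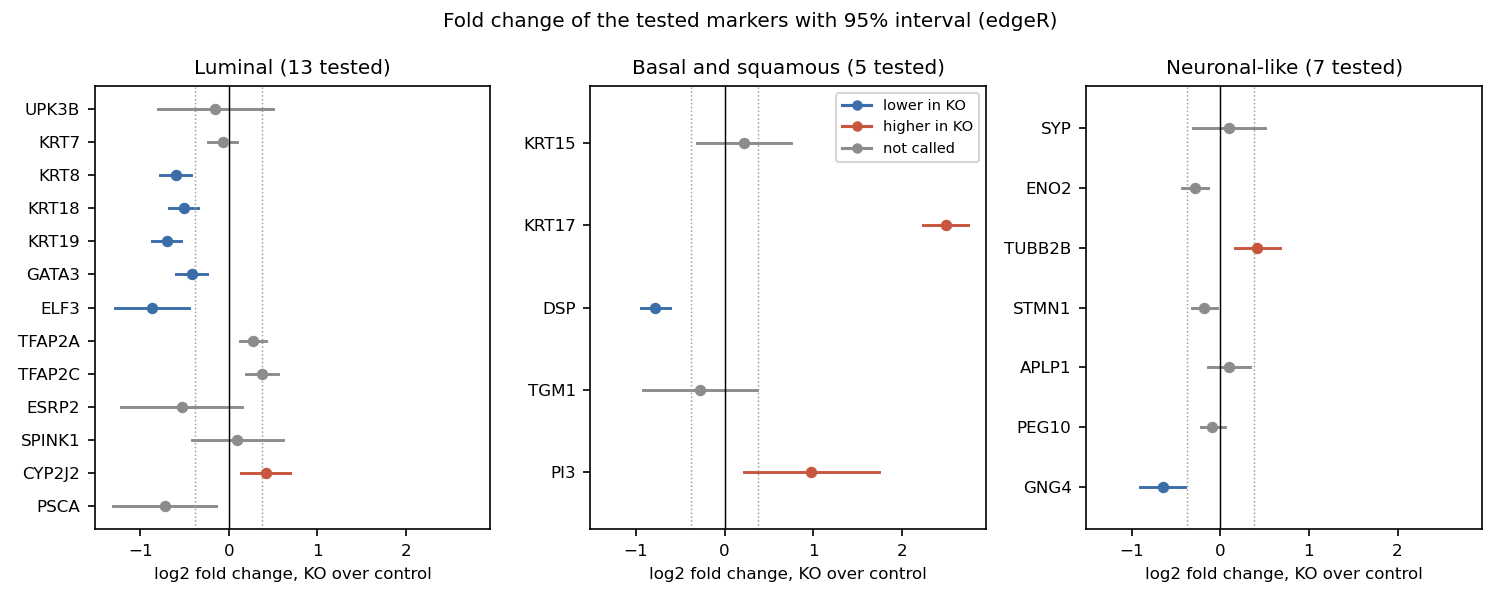
Log2 fold change (KO over control) of the 25 tested marker genes, with points for the estimate and bars for the 95% interval from edgeR; dotted lines mark a 1.3-fold change. KRT8, KRT18, KRT19, GATA3, ELF3, DSP and GNG4 lie to the left in blue, and KRT17 stands apart on the right at 2.50.

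Of the 5 simple keratins in the list KRT8, KRT18 and KRT19 fell, KRT7 was not called and KRT20 was too low to test. KRT8, the type II chain of the simple pair (chromosome 12, 53290971 to 53343738, minus strand, GRCh37), had 1960, 1520 and 1490 CPM in control replicates 1 to 3 and 1080, 1160 and 1040 CPM in KO replicates 1 to 3. Its partner KRT18 (chromosome 12, 53342655 to 53346690, plus strand) had 623, 509 and 500 CPM in control and 395, 388 and 366 CPM in KO libraries. KRT19, the type I chain without a tail domain, had 145, 114 and 122 CPM in control and 80.5, 79.7 and 74.5 CPM in KO libraries. For each of these 3 genes every KO library lay below every control library, and control replicate 1 was the highest. The log2 fold changes were -0.60 for KRT8 (SE 0.0863, edgeR adjusted p 3.11e-06), -0.51 for KRT18 (SE 0.0778, adjusted p 9.27e-06) and -0.70 for KRT19 (SE 0.0808, adjusted p 8.06e-08). Without control replicate 1 they were -0.47, -0.41 and -0.60, and all 3 were still called.

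KRT7, the other type II chain of these cells, had 1110, 960 and 909 CPM in control and 932, 1020 and 889 CPM in KO libraries. The groups overlapped, and the log2 fold change was -0.07 with a 95% interval from -0.23 to 0.09 (adjusted p 0.575). KRT7 therefore was not called, and its interval lies above those of KRT8 (-0.78 to -0.43) and KRT19 (-0.87 to -0.54). The log2 ratio of KRT8 over KRT7 within a library was 0.53 to 0.69 in control and 0.04 to 0.09 in KO libraries (means 0.6 and 0.0694, exact permutation p 0.1, two-sided, the smallest possible with 3 libraries against 3). The log2 ratio of KRT8 over its partner KRT18 was 1.24 to 1.32 in control and 1.11 to 1.24 in KO libraries (exact permutation p 0.2). That of KRT19 over KRT18 was -2.13 to -2.01 in control and -2.27 to -2.26 in KO libraries, without overlap (exact permutation p 0.1). Some reads of these keratins match more than 1 gene. Of the 75-base windows of the KRT8 transcript, 18.8% also occur in transcripts of other genes, KRT8 pseudogenes sharing most, and for KRT18 the share was 6.5%, while KRT7 and KRT19 shared 0. The annotated KRT8 and KRT18 genes also overlap on opposite strands. KRT7 overlaps KRT86 on the same strand, and KRT7-AS and KRT87P on the opposite strand.

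KRT17 went the other way and had the largest fold change of the 25 tested markers. This type I keratin of basal, wounded and squamous epithelium (chromosome 17, 39775694 to 39781094, minus strand) had 4.37, 3.03 and 3.42 CPM in control and 21.6, 21.2 and 18.1 CPM in KO libraries. The groups were far apart, with 74 to 98 counts per control library and 398 to 536 per KO library. The rise was 5.65-fold, or 2.50 on the log2 scale (SE 0.125, edgeR adjusted p 1.91e-15), and it ranged from 2.38 to 2.64 over 13 alternatives. Among the 8 type I keratins in the list, KRT17 made up 0.449% to 0.524% of the summed RPKM in control and 3.67% to 4.04% in KO libraries. The share of KRT19 moved from 19.1% ± 0.629 to 16.5% ± 0.0557 (SD, n = 3), and that of KRT18 from 80.3% ± 0.649 to 79.3% ± 0.234. Each of these 3 shares differed without overlap (exact permutation p 0.1, the smallest possible). Of the KRT17 windows, 4.57% occur in other genes, with the pseudogene KRT17P3 sharing most.

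**Figure D3:**
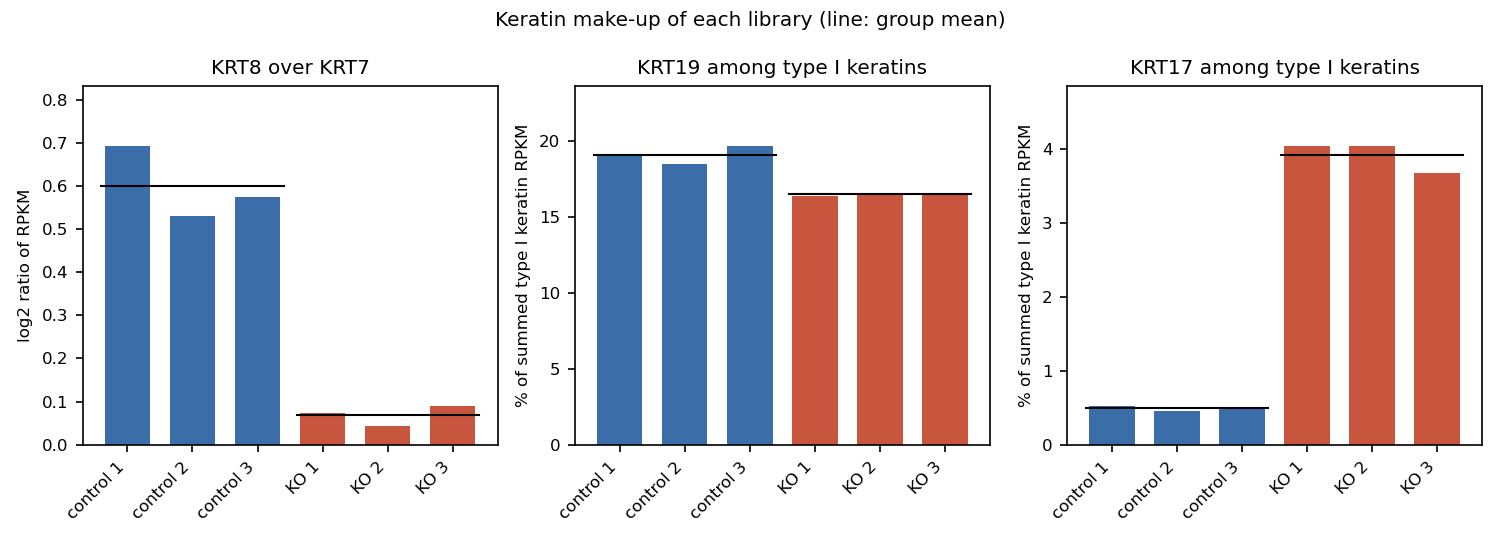
Bars give, for each of the 6 libraries, the log2 ratio of KRT8 over KRT7 in RPKM (left) and the percent of the summed type I keratin RPKM held by KRT19 (middle) and KRT17 (right); lines are group means. KRT8 over KRT7 falls from a mean of 0.6 to 0.0694, and the KRT17 share rises from 0.493% to 3.92%.

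None of the other basal and squamous keratins in the list was called, and KRT15 alone among them passed the filter. KRT15, a keratin of basal progenitors, had 1.69, 0.901 and 0.865 CPM in control and 1.47, 1.39 and 1.15 CPM in KO libraries, and the groups overlapped (log2 fold change 0.22, 95% interval -0.31 to 0.75, adjusted p 0.566). KRT6A, KRT6B and KRT6C had 0 counts in every library, KRT13 had 0 counts in control and 1 in each KO library, and KRT16 had 0 to 8. Near-identical KRT6 copies share 26.2% to 42.5% of their windows, so a counting that drops shared reads would lower them. Among genes of the cornified envelope, which seals squamous cells, SPRR1B and SPRR3 were at 0 throughout and TGM1, a transglutaminase, had a log2 fold change of -0.28 (95% interval -0.92 to 0.37, adjusted p 0.555). PI3, the protease inhibitor elafin, had 0.312, 0.205 and 0.511 CPM in control and 0.869, 0.555 and 0.680 CPM in KO libraries (log2 fold change 0.98, adjusted p 0.0463). That call rested on 5 to 16 counts per library and was lost with DESeq2 (adjusted p 0.208), with no filter on low counts (adjusted p 0.074) and on leaving out control replicate 1, control replicate 2, KO replicate 1 or KO replicate 3 (adjusted p up to 0.221).

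DSP, which encodes the desmosomal plaque protein desmoplakin, fell (chromosome 6, 7541571 to 7586947, plus strand). It had 64.4, 62.5 and 61.1 CPM in control and 38.6, 36.5 and 34.6 CPM in KO libraries. The libraries of a group lay close together and the groups far apart, for a 1.72-fold decrease (log2 fold change -0.78, SE 0.0772, edgeR adjusted p 4.62e-09). DSP kept its call in all 13 alternatives. Its E-box cores are shown above.

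The transcription factors filed as luminal in the list split. GATA3, the zinc finger factor of luminal urothelium (chromosome 10, 8087341 to 8117161, plus strand), had 37.6, 33.6 and 34.7 CPM in control and 24.3, 28.1 and 26.4 CPM in KO libraries. ELF3, an epithelial ETS factor (chromosome 1, 201977073 to 201986311, plus strand), had 2.54, 2.99 and 2.08 CPM in control and 1.58, 1.39 and 1.23 CPM in KO libraries. Both were lower in every KO library. The log2 fold change of GATA3 was -0.42 (SE 0.0851, edgeR adjusted p 0.000343) and that of ELF3 was -0.87 (SE 0.202, adjusted p 0.00155). GATA3 fell short of the 1.3-fold threshold without KO replicate 1 (-0.37, adjusted p 0.0047). A lncRNA overlapping ELF3 shares 12.4% of its windows.

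The AP-2 factors stood higher in KO libraries but were not called. TFAP2A had 105, 98.9 and 107 CPM in control and 125, 120 and 130 CPM in KO libraries, and TFAP2C had 19.9, 20.1 and 21.1 CPM in control and 27.7, 26.8 and 25.1 CPM in KO libraries. Both lay above the controls in every KO library, with log2 fold changes of 0.27 (adjusted p 0.00361) and 0.38 (adjusted p 0.00123), but their fold changes did not exceed 1.3. TFAP2C, just under that threshold, passed it with DESeq2 (adjusted p 0.001), after thinning all libraries to the smallest, without control replicate 3 and without KO replicate 3. The remaining factors were scarce. GRHL2 and GRHL3, grainyhead factors of epithelial junctions, had at most 8 counts, OVOL2 had at most 1, and OVOL1 and the cofactor gene VGLL1 had 0 counts in all libraries.

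Among the epithelial splicing regulators, ESRP2 had 0.669, 0.655 and 0.747 CPM in control and 0.543, 0.595 and 0.297 CPM in KO libraries (log2 fold change -0.53, 95% interval -1.22 to 0.15, adjusted p 0.246). Every KO value lay below every control value, at 7 to 19 counts per library. ESRP1 had 9, 3 and 8 counts in control and 1, 2 and 2 counts in KO libraries and was not tested.

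Of the other luminal markers, 1 was called. CYP2J2, an arachidonic acid epoxygenase, had 6.24, 5.0 and 6.01 CPM in control and 9.24, 7.33 and 6.63 CPM in KO libraries. Its KO values lay just above the controls, with KO replicate 1 the highest. The log2 fold change of 0.42 (SE 0.133, edgeR adjusted p 0.018) lost its call with DESeq2 (adjusted p 0.0635), without control replicate 2 (0.32, adjusted p 0.102) and without KO replicate 1 (0.28, adjusted p 0.149). PSCA, a surface antigen of the luminal layer, had 1.07, 0.819 and 1.14 CPM in control and 0.543, 0.555 and 0.722 CPM in KO libraries (log2 fold change -0.72, 95% interval -1.31 to -0.14). The groups did not overlap, but the adjusted p was 0.0569. SPINK1, a trypsin inhibitor, overlapped between the groups (0.09, 95% interval -0.42 to 0.61), as did the uroplakin UPK3B (-0.15, 95% interval -0.80 to 0.50), and SNX31 had 0 counts.

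Of the 7 tested neuronal-like markers, 1 was called lower (14.3%, against 8.39% of all tested genes) and 1 higher (14.3%, against 7.57%), shares that rest on a single gene each. CHGB, a granin of secretory granules, had 0 counts, CHGA had 0 to 4, and the RNA-binding stem cell marker MSI1 had 0 to 4 counts. SYP, the synaptic vesicle protein synaptophysin, had 1.78, 1.60 and 1.93 CPM in control and 1.63, 2.26 and 1.74 CPM in KO libraries, and the groups overlapped (0.10, 95% interval -0.31 to 0.51, adjusted p 0.747). The granule markers of neuroendocrine cells were thus low in both groups.

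GNG4, a G protein gamma subunit, was the only neuronal-like marker called lower. It had 7.40, 7.29 and 7.98 CPM in control and 4.46, 4.56 and 5.35 CPM in KO libraries. The groups did not overlap, and the difference was -0.65 on the log2 scale (SE 0.124, edgeR adjusted p 0.000167). TUBB2B, a beta-tubulin of neurons, had 4.81, 4.75 and 5.11 CPM in control and 6.09, 6.58 and 6.92 CPM in KO libraries, or 0.42 on the log2 scale (SE 0.124, adjusted p 0.0106). Its call was lost with DESeq2 (adjusted p 0.0591) and without KO replicate 3 (0.37, adjusted p 0.0592). TUBB2B shares 52.1% of its windows with other genes, first of all TUBB2A, so its level is uncertain.

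The markers ENO2, STMN1 and PEG10 were abundant and APLP1 was not, and none of them was called. ENO2, the neuronal enolase, had 149, 135 and 131 CPM in control and 108, 116 and 116 CPM in KO libraries (log2 fold change -0.29, adjusted p 0.00313), below the controls in every KO library but short of 1.3-fold. STMN1, a microtubule destabilizer of dividing cells and neurons, had 546 to 580 CPM in control and 488 to 506 CPM in KO libraries (-0.18, adjusted p 0.0451), and its adjusted p exceeded 0.05 in 7 of 13 alternatives. PEG10, an imprinted retrotransposon-derived gene, had 325 to 350 and 305 to 323 CPM (-0.09, 95% interval -0.22 to 0.05), and APLP1, an amyloid precursor-like protein gene, had 6.84 to 8.91 and 8.13 to 8.62 CPM (0.10, 95% interval -0.14 to 0.34).

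Genes of the same programs that are not in the marker set were then counted. Their lists were chosen with earlier results of these data known, so their shares are no independent support. Of 17 related luminal genes, 16 were in the table and 13 were tested, of which 6 (46.2%) were called in edgeR, each of them lower, against 8.39% of all tested genes. The lower genes were FABP4, a fatty acid binding protein gene downstream of PPARG (log2 fold change -1.81, adjusted p 1.56e-07), FOXA1 (-1.14), CLDN7 (-0.86), EPCAM (-0.86), PPARG (-0.45) and KLF5 (-0.44). PPARG, the nuclear receptor of luminal differentiation, had 121, 127 and 123 CPM in control and 91.7, 87.8 and 92.4 CPM in KO libraries (adjusted p 1.04e-05), without overlap. XBP1 (0.25, adjusted p 0.0102) and CLDN4 (0.28, adjusted p 0.0293) had positive values short of 1.3-fold, and the KO libraries lay above all controls for XBP1. CD24 was not analysed here.

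Of 15 related basal genes 13 were tested, of which 3 were called lower (23.1%, against 8.39% of all tested genes) and 3 higher (23.1%, against 7.57%). LAMB3, a laminin chain of the basement membrane, had 13.1, 10.8 and 13.1 CPM in control and 28.4, 31.5 and 26.1 CPM in KO libraries, or 1.22 on the log2 scale (SE 0.0997, edgeR adjusted p 9.94e-11). SFN, the epithelial 14-3-3 sigma protein, rose as well (0.68, adjusted p 2.55e-06), and COL17A1, a hemidesmosomal collagen, was called higher (0.75, adjusted p 0.0414) on 14 to 33 counts per library. The COL17A1 call was lost in 8 of 12 alternatives. The lower genes were the desmosomal cadherins DSC3 (-1.25, adjusted p 3.91e-05) and DSC2 (-0.68, adjusted p 0.00246) and the hemidesmosomal integrin ITGB4 (-0.59, adjusted p 0.000266). Of 14 related neuronal genes 5 were tested, with POU3F2 (-0.71) and SCG2 (-0.45) lower (40%, against 8.39%) and SNAP25 (0.82) higher (20%, against 7.57%). With so few genes tested, nothing is read from these shares. NEUROD1, a neurogenic transcription factor gene, had 0 counts in every library.

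Of the 7 mesenchymal genes, all tested, 2 (28.6%) were called in edgeR, both higher, against 7.57% of all tested genes. ZEB1, an E-box binding repressor of epithelial genes, had 47.8, 52.2 and 47.4 CPM in control and 64.5, 73.0 and 80.9 CPM in KO libraries (log2 fold change 0.57, SE 0.0823, adjusted p 3.64e-06). SNAI2, a repressor of the same class, had 52.9 ± 2.63 CPM in control and 80.8 ± 6.56 CPM in KO libraries (SD, n = 3) (0.61, SE 0.0777, edgeR adjusted p 4.89e-07). Neither gene overlapped between the groups. ZEB2, of the same family as ZEB1, lay below all controls in every KO library (-0.15, edgeR adjusted p 0.133) and was not called. VIM lay above them (0.30) but short of 1.3-fold, and CDH2 (-0.11), FN1 (0.01) and TWIST1 (0.03) overlapped. The median over the 7 genes was 0.032, and nothing is read from the share of calls. The part of ZEB1 and SNAI2 in the lower levels of KRT8, KRT18, KRT19, ELF3 and DSP was not tested.

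**Figure D4:**
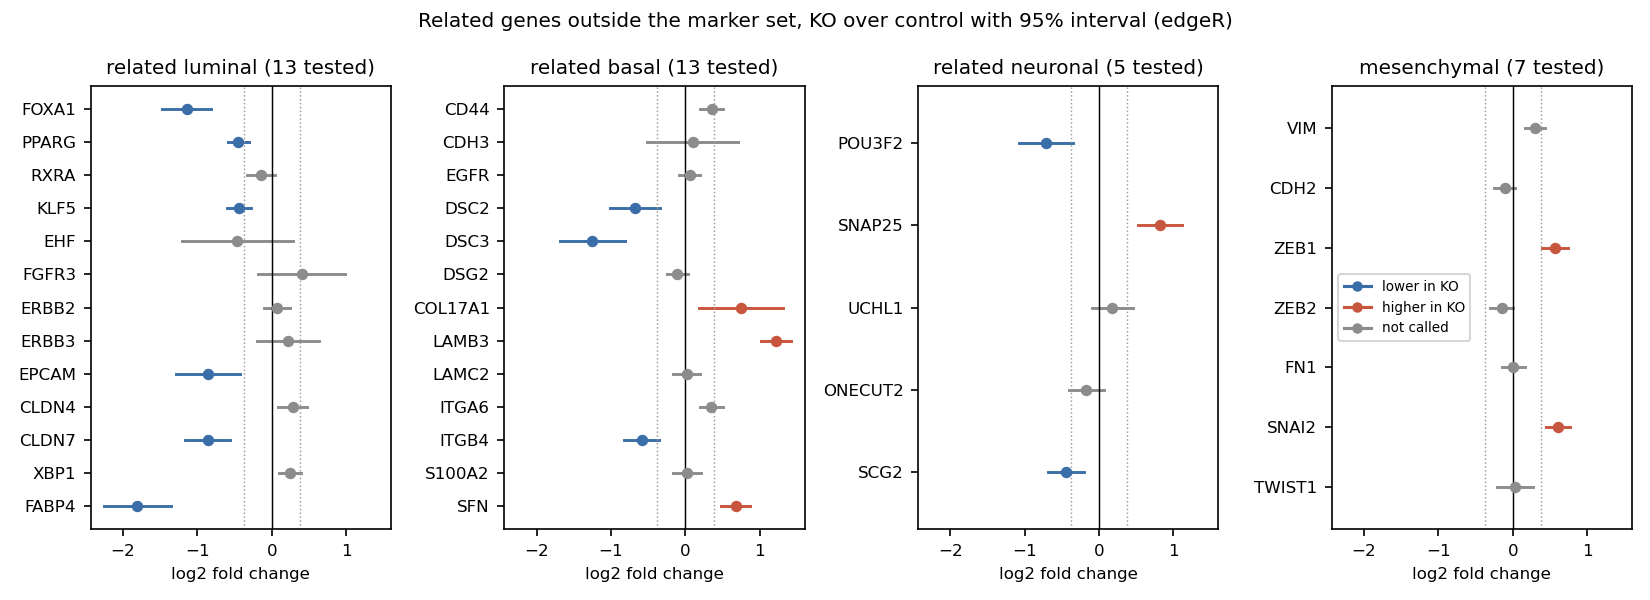
Log2 fold change (KO over control) with 95% intervals from edgeR for tested genes outside the marker set, in 4 panels by list; dotted lines mark a 1.3-fold change. Related luminal genes called in blue lie only to the left, down to FABP4 at -1.81, while the related basal panel has calls on both sides, from DSC3 at -1.25 to LAMB3 at 1.22.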

How the data were processed

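The authors aligned paired 75 bp reads to hg19 with STAR and assigned them to GENCODE genes with featureCounts, and deposited unnormalized counts; strand and multi-mapping settings and tool versions are not given in the sources used here. Symbols and positions came from GENCODE on GRCh37, the assembly of hg19 (55538 of 57820 identifiers matched). Positions, lengths and transcript sequences were of a later GENCODE release than the one the paper counted on. Lengths may therefore differ from those of the exons that were counted. All rows named a gene, and 0 columns belonged to other samples. Columns were assigned by sample title.

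Genes were kept with filterByExpr, scaled with TMM and compared by the robust quasi-likelihood test of edgeR 4.0.16 (R 4.3.3), with group as the only term and Benjamini-Hochberg adjustment over all 15647 tested genes. Standard errors were derived from the F statistic. CPM used TMM-scaled totals. RPKM used the length of the canonical transcript. Exact permutation tests were two-sided. Windows of 75 bases were compared between transcripts of different genes by exact match. Within a group, pairs of libraries differed beyond sampling noise (chi-square of 2.73 to 9.15 per gene). Depth allows a floor of 3 counts per gene and library, for counting error only.

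The marker genes and related lists were chosen with earlier results of these data known. Every marker was accounted for; called markers were given per library, and genes of related lists were named where called. Alternatives were DESeq2 1.42.0 (the tool of the study), RLE factors, library size alone, no filter, thinning to the smallest library, a minimum mean of 50 counts, a replicate block, leaving out each library, and other fold thresholds. The procedure was tested on simulated data.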

Additional observations from a re-analysis of the deposited data

How the results depend on the processing

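At the 1.3-fold threshold, the calls of KRT8, KRT18, KRT19, KRT17, ELF3, DSP and GNG4 held under all alternatives that tested them, and GATA3 lost only the fold threshold, without KO replicate 1. Markers called lower numbered 6 to 8, and markers called higher 2 to 5, on leaving out each of the 6 libraries in turn. The higher markers numbered 2 without control replicate 2 and without KO replicate 1. With DESeq2 there were 7 lower and 2 higher markers, the higher ones being KRT17 and TFAP2C. At more than 2-fold, 0 markers were lower and 1, KRT17, was higher, and of all genes 321 were lower and 316 higher. With no fold threshold 2233 genes were lower and 2372 higher.

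Medians of log2 fold change depended on which markers were tested. The basal median was 0.922 with DESeq2, 0.935 with no filter and 0.846 with a mean of at least 50 counts (10, 10 and 2 genes), and 0.047 to 0.577 on leaving out each library in turn. The luminal median was -0.256 with a mean of at least 50 counts and -0.472 to -0.307 over those fits. The neuronal-like median was -0.175, -0.181 and -0.145 with DESeq2, no filter and a mean of at least 50 counts, and -0.107 to -0.064 over those fits. For these medians, apart from the markers tested, the cause was not tested. Markers that were never called changed sign when 1 library was left out: KRT7 (-0.12 to 0.01), UPK3B (-0.31 to 0.06) and SPINK1 (-0.09 to 0.28), each reversed without control replicate 1, and SYP (-0.06 to 0.18), reversed without KO replicate 2. For single markers, 293 values stayed on their side of the 0.05 threshold with the same sign, and 18 crossed it upward, in CYP2J2, PI3, TUBB2B and STMN1. PSCA crossed it downward without control replicate 2 (adjusted p 0.049).

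Libraries sharing a replicate number did not deviate together (r of -0.0402, -0.129 and 0.0734), and the main fit used no pairing. Whether such libraries were cultured or prepared together is not stated, and these values cannot tell. In the fit with a replicate block, 7 markers were lower and 4 higher, 1351 genes were lower and 1200 higher, and the adjusted p of STMN1 was 0.0721. Under DESeq2, RLE and library size alone the overall median shifted by 0.004, 0 and -0.008 on the log2 scale.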

Other observations

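Among the markers under the filter, 4 had KO and control libraries that did not overlap, and they are named here after their values were seen. TP63, which encodes the basal factor p63, had 1 count in each control library and 4, 9 and 5 counts in the KO libraries, a ratio of summed counts of 6.46 (95% counting interval 1.89 to 34.2). With no filter on low counts its edgeR adjusted p was 0.0149, and DESeq2 gave an unadjusted p of 0.0241 and no adjusted p. ESRP1 was 3.72-fold lower in KO by summed counts (95% counting interval 1.35 to 12.7, edgeR adjusted p 0.0656 with no filter). MSI1 was 4.64-fold lower, with an interval of 0.99 to 43.6. KRT13 stayed at or under 1 count per library. The intervals cover counting error only.

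Outside the marker set, CLDN3, a tight junction claudin, was too low to test and had 1 count over the control libraries and 16 over the KO libraries (ratio 17.2, 95% counting interval 2.68 to 722). CDH5, the vascular cadherin, had a ratio of 66.7 (95% counting interval 11.5 to 2680), and PTPRC a ratio of 2.48 (95% counting interval 1.13 to 5.83). CLDN7 fell while CLDN3 stood higher by this count, and the difference between them was not tested.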
